A study of Mus musculus with 6 samples.

Results

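The genes described here are the 13 protein-coding transcripts of the mouse mitochondrial genome and 27 nuclear genes for the proteins that copy, transcribe and process that genome. They were taken by gene name from a deposited expression table of 11175 genes, and all 40 were found in it. Cytotoxic (CD8+) T lymphocytes from wild-type (WT) mouse spleen were activated for 48 h through CD3 and CD28, either with DOPAC (3,4-dihydroxyphenylacetic acid, a catechol made when dopamine is degraded; 3 libraries) or without it (Control; 3 libraries). No dose of DOPAC and no sex or age of the mice was used here. Whether replicates were separate animals or cultures is not stated, so each p-value reflects library-to-library spread alone, and that spread may be technical.

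Mitochondrial DNA is transcribed from both strands as long precursors by a single-subunit RNA polymerase, POLRMT, with the factors TFAM and TFB2M at the promoter and TEFM during elongation. Most coding sequences are flanked by tRNAs, and excision of those tRNAs by RNase P and ELAC2 releases the mRNAs, which are then polyadenylated, stabilised by the LRPPRC and SLIRP pair, or degraded by PNPT1 and SUPV3L1. All 13 protein-coding genes encode subunits of the respiratory chain or of ATP synthase. T cells expand their mitochondria when they are activated.

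Genes were tested if their FPKM (fragments per kilobase of exon, scaled to library size) averaged 1 or more over the 6 libraries; 10887 genes did, among them all 40 members. FPKM summed to between 292755 and 316035 in the DOPAC libraries and between 283818 and 310918 in the controls. Read counts were not used here, so the depth behind these values is unknown. Control replicate 1 stood apart: its log2 values correlated with those of the other 5 libraries at 0.899 to 0.917 across genes, where the other 5 gave 0.974 to 0.992 among themselves (genes are not independent replicates). All 7 CD8 T cell markers looked for were present, summing to between 603 and 701 FPKM with DOPAC and between 631 and 671 FPKM in the controls. Of 6 macrophage markers, 2 (Lyz2 and Cd68) were among the genes analysed, summing to 4.45 to 12.4 FPKM with DOPAC and 14.2 to 33.8 FPKM in the controls. Of 4 fibroblast markers, 3 were analysed, summing to 0.330 to 16.0 FPKM with DOPAC and 25.7 to 27.9 FPKM in the controls. The summed levels of 2 of 4 erythroid markers were 0.280 to 3.02 FPKM with DOPAC and 2.72 to 10.4 FPKM in the controls. Of the NK cell markers only Eomes was analysed (2.92 to 3.12 FPKM with DOPAC, 3.55 to 4.93 FPKM in the controls). By itself Eomes does not tell NK cells from CD8 T cells. Among the B cell markers only Cd79b was analysed (1.47 to 2.61 FPKM with DOPAC, 1.54 to 2.49 FPKM in the controls). None of the markers listed for CD4 T cells, dendritic cells or neutrophils was analysed here. The part of other cells in the results was not tested.

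No difference in a single member was called. An adjusted p under 0.05 (limma on log2(FPKM + 1), Benjamini-Hochberg over all tested genes) was reached by 0 of 40 members and 0 of 10887 genes (0.0%). The smallest limma adjusted p among members was 0.801. Unadjusted, 2 members had a p under 0.05, mt-Atp8 and mt-Atp6, both with higher values under DOPAC, beside 4.19% of all genes (2.73% higher and 1.46% lower); with the replicate number as a block there was 1. The groups did not overlap in 13 members (32.5%), beside 17.2% of all genes. In each of these 13 the DOPAC libraries were the higher ones, as in 12.4% of all genes, and in none were they the lower ones, as in 4.8% of all genes. They were 8 of the 13 mitochondrially encoded transcripts and 5 of the 27 nuclear-encoded members. Values below are therefore given as measured levels and not as changes that were called. In bulk RNA, a different number of mitochondria per cell and a different amount of RNA per mitochondrion cannot be told apart, nor can fewer cells of a type and less RNA per cell.

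The 13 mitochondrially encoded transcripts were measured at means of 219 to 8939 FPKM. Together they made up 13.2%, 12.3% and 12.4% of the summed FPKM in DOPAC replicates 1 to 3, and 9.20%, 11.8% and 11.3% in control replicates 1 to 3. The 3 DOPAC libraries lay above the 3 controls, and control replicate 1 was the lowest. The means were 12.7 ± 0.491% with DOPAC and 10.8 ± 1.39% in the controls (SD, n = 3 each), a difference of 1.88 percentage points. Without control replicate 1 the difference was 1.09 percentage points. After quantile normalization the groups overlapped, at 12.3%, 12.0% and 12.1% with DOPAC and 8.69%, 12.1% and 12.0% in the controls, so that only control replicate 1 stood apart. The 2 mitochondrial ribosomal RNAs together took 0.675%, 0.730% and 0.715% of the summed FPKM with DOPAC, against 0.510%, 0.609% and 0.581% in the controls, and these groups did not overlap either. How evenly the library kits captured mitochondrial ribosomal RNAs, tRNAs and mRNAs, mt-Nd6 among them, was not tested. Their FPKM and shares may therefore not follow their amounts in the cells.

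**Figure D1:**
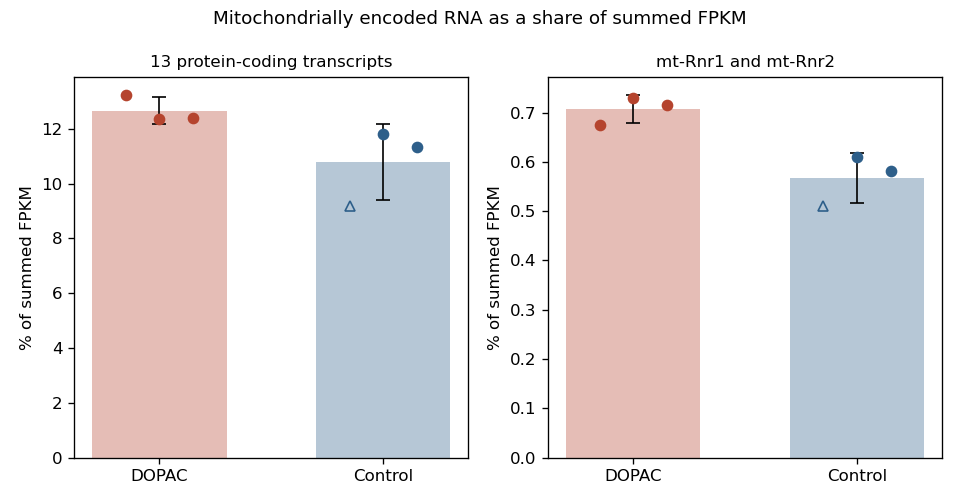
Share of the summed FPKM (y axis, %) taken by the 13 mitochondrially encoded protein-coding transcripts (left) and by the mitochondrial ribosomal RNAs mt-Rnr1 and mt-Rnr2 (right). Bars are means of 3 libraries, error bars are SD, points are libraries and the open triangle is control replicate 1; the DOPAC libraries lie between 12.3% and 13.2% on the left, above controls at 9.20% to 11.8%.

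Median log2 fold changes of DOPAC over Control set the transcripts of the mitochondrial genome beside the rest. The median was 0.28 over the 13 mitochondrially encoded transcripts and 0.066 over all tested genes, and 12 of the 13 were positive (92.3%, beside 62.1% of all genes). Without control replicate 1 the median was 0.18 over the 13, all 13 of which were positive (beside 47.3% of all genes), and -0.011 over all genes. Over the 27 nuclear-encoded members the median was 0.085, with 17 positive, and 0.0034 without that library, with 14 positive; the scaling moved both medians. They were 0.131 over the 13 and 0.032 over the nuclear-encoded members after quantile normalization, and 0.403 and -0.008, in the same order, with a length trend removed from each library. These counts carry no test, and the 13 are cut from shared precursors of one genome, so they are not independent of each other.

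With the values as deposited, the ATP synthase subunits had the smallest p-values among the members. mt-Atp8, which encodes a small membrane subunit of ATP synthase, measured 4421, 3982 and 3842 FPKM in DOPAC replicates 1 to 3 and 2586, 3290 and 3381 FPKM in control replicates 1 to 3. The groups did not overlap, with 0.41 as the log2 fold change (95% interval 0.075 to 0.75) and 0.801 as the limma adjusted p, or 0.29 (0.051 to 0.53) without control replicate 1. mt-Atp6, which encodes the subunit that forms the proton channel, measured 3104, 2727 and 2691 FPKM with DOPAC and 2137, 2393 and 2366 FPKM in the controls. Here too every DOPAC library lay above every control, with a log2 fold change of 0.30 (95% interval 0.032 to 0.58), or 0.25 (0.014 to 0.49) without control replicate 1. Neither kept an unadjusted limma p under 0.05 after quantile normalization (mt-Atp8 0.328, mt-Atp6 0.345) or with the length trend removed (mt-Atp8 0.0606, mt-Atp6 0.0828). The log2 fold changes of mt-Atp8 and mt-Atp6 were smaller after quantile normalization, at 0.21 and 0.16. With the length trend removed they were larger, at 0.68 and 0.52. So were their standard errors, at 0.299 and 0.252 against 0.141 and 0.114 with the values as deposited. The members with higher values and an unadjusted limma p under 0.05 were then Tefm alone (0.0312) after quantile normalization, and mt-Co3 (0.0142) and mt-Co2 (0.0346) with the length trend removed. The reading frames of these genes overlap by 43 bases, and both are carried on one bicistronic mRNA, so that reads in the overlap cannot be given to one of them. The sequence of mt-Atp8, 204 bases long, is shown to place that overlap (M:7766-7969, plus strand, GRCm38, GENCODE M21), with the bases shared with mt-Atp6 in capitals.
mt-Atp8: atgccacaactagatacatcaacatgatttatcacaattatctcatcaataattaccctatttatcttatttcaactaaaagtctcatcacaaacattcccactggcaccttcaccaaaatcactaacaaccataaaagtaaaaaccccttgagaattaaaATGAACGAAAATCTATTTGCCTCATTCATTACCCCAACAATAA
The ratio of mt-Atp8 to mt-Atp6 FPKM was 1.42, 1.46 and 1.43 with DOPAC and 1.21, 1.38 and 1.43 in the controls, and the groups overlapped.

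Cytochrome c oxidase subunits I, II and III, the catalytic core of complex IV, are encoded by mt-Co1, mt-Co2 and mt-Co3. mt-Co1 was the most abundant of the 13, at 10554, 9548 and 9598 FPKM with DOPAC and 6232, 9168 and 8536 FPKM in the controls, with no overlap between groups. Its log2 fold change was 0.33 (95% interval -0.062 to 0.72), and 0.16 (-0.086 to 0.41) without control replicate 1, which was far below the other 5 libraries. mt-Co2 measured 2949, 2309 and 2074 FPKM with DOPAC and 2830.0, 1838 and 2063 FPKM in the controls. mt-Co3 measured 2005, 1654 and 1660 FPKM with DOPAC and 2040.5, 1375 and 1474 FPKM in the controls. In both of these, control replicate 1 was the highest control and overlapped the DOPAC libraries, unlike in mt-Co1. Their log2 fold changes were 0.13 for mt-Co2 and 0.14 for mt-Co3, against 0.31 for each without control replicate 1, when the groups no longer overlapped. mt-Cytb, the cytochrome b gene of complex III, measured 3200.5, 2730.4 and 2614 FPKM with DOPAC and 2458, 2498 and 2504 FPKM in the controls. Its groups did not overlap, the 3 controls lay close together, and the log2 fold change was 0.19 (95% interval -0.087 to 0.47).

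Complex I, which passes electrons from NADH to ubiquinone, has 7 subunits encoded in mitochondrial DNA. mt-Nd1 measured 4846, 3988 and 3988 FPKM with DOPAC and 3544, 3702 and 3657 FPKM in the controls. mt-Nd2 measured 2774, 2314 and 2370 FPKM with DOPAC and 1816.5, 2154 and 2166 FPKM in the controls. Neither gene had overlapping groups, DOPAC replicate 1 was the highest library in both, and the log2 fold changes were 0.23 and 0.28. mt-Nd4l measured 1817, 1715 and 1770 FPKM with DOPAC and 1038, 1620.4 and 1554 FPKM in the controls. mt-Nd4 measured 2112, 2021 and 2098 FPKM with DOPAC and 1184, 2101 and 1911 FPKM in the controls. These neighbours, which share a bicistronic mRNA, both had their lowest value in control replicate 1, and only mt-Nd4 had overlapping groups. mt-Nd5 measured 2198, 1988.5 and 2030.5 FPKM with DOPAC and 1098.5, 1919.8 and 1873 FPKM in the controls, and its groups did not overlap. Without control replicate 1 the log2 fold changes of mt-Nd4l, mt-Nd4 and mt-Nd5 were 0.15, 0.051 and 0.13, against 0.36, 0.30 and 0.39 with all 6 libraries. mt-Nd3 was the least abundant of the 13, at 183, 172 and 184 FPKM with DOPAC and 436, 159 and 178 FPKM in the controls. It alone of the 13 had a negative log2 fold change, -0.36 (95% interval -1.24 to 0.52), which was 0.098 without control replicate 1.

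mt-Nd6 differs from the other 12 in position, since it is the one protein-coding gene read from the opposite strand. It measured 1623, 1340.7 and 1385 FPKM with DOPAC and 1196, 1322 and 1340.8 FPKM in the controls. The groups overlapped narrowly, DOPAC replicate 2 lying just under control replicate 3, and the log2 fold change was 0.17 (95% interval -0.12 to 0.46). As a share of the summed FPKM of the 13, mt-Nd6 took 3.88%, 3.67% and 3.81% with DOPAC and 4.18%, 3.94% and 4.06% in the controls. Measured in this way the DOPAC libraries lay below the controls. A single scaling factor per library leaves such shares unchanged, but quantile normalization and removal of a length trend can change them. With the length trend removed, the log2 fold change of mt-Nd6 was 0.43, beside a median of 0.403 over the 13. With the values as deposited it was 0.17, beside 0.281. mt-Atp8 was the other transcript whose share separated the groups, at 10.6%, 10.9% and 10.6% with DOPAC and 9.04%, 9.81% and 10.2% in the controls. The shares of the other 11 transcripts overlapped. The library kits used do not mark strand, so precursor RNA of the opposite strand can be counted along the whole of mt-Nd6. Its FPKM and its share may therefore not be those of its own transcript alone. The ends of mt-Nd5 and mt-Nd6 also overlap by 14 bases on opposite strands, so reads there cannot be assigned. The last 60 bases of each of 3 genes are shown to place the short overlaps, in capitals, that mt-Nd4l has with the start of mt-Nd4 (7 bases) and that mt-Nd5 and mt-Nd6 have with each other; each line is 5′ to 3′ on the gene's own strand (GRCm38, GENCODE M21; M:10114-10173 plus, M:13506-13565 plus and M:13552-13611 minus).
mt-Nd4l: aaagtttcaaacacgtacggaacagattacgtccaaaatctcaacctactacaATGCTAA
mt-Nd5: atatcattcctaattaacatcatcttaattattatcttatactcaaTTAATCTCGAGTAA
mt-Nd6: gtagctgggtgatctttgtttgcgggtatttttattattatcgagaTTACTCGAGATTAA
The capitals of mt-Nd5 and mt-Nd6 are the reverse complement of each other. Copies of mitochondrial DNA in the nuclear genome can also take or lend reads, which makes single values of all 13 uncertain.

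**Figure D2:**
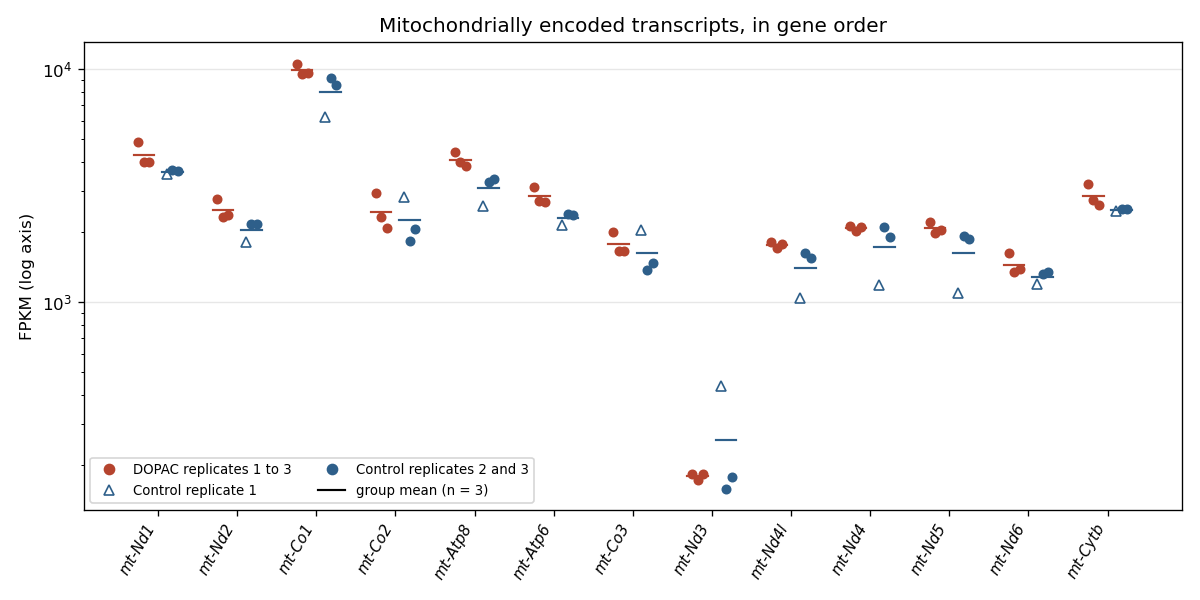
FPKM (log axis) of the 13 mitochondrially encoded transcripts, left to right in their order on the mitochondrial genome, with DOPAC points left of Control points. Points are libraries, the open triangle is control replicate 1 and lines are group means of 3; mt-Co1 is the most abundant and mt-Nd3 the least, and the triangle lies above the other controls for mt-Co2, mt-Co3 and mt-Nd3 and below them elsewhere.

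Control replicate 1 deviated from the other 5 libraries by a different amount for each transcript. On the log2(FPKM + 1) scale it lay 1.31 above the mean of the others for mt-Nd3, 0.35 above for mt-Co2 and 0.33 above for mt-Co3. It lay below that mean for the remaining 10, with values between -0.13 for mt-Cytb and -0.86 for mt-Nd5. It was the lowest of the 6 libraries for 10 of the 13 transcripts (76.9%, beside 58.6% of all genes) and the highest for 2 (15.4%, beside 20.9%). Annotated gene length ordered these deviations weakly (Spearman's rho -0.34 over 13 transcripts). The 2 shortest genes, mt-Atp8 at 204 bases and mt-Nd4l at 297 bases, had deviations of -0.54 and -0.71. Each of them lies on a bicistronic mRNA, of 842 and 1668 bases by the annotated ends. With the length of that shared RNA in place of the gene's, rho was -0.83; these values describe 1 library, the 13 points share it and the pairs share an RNA, and the second length was chosen after the deviations were seen.

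**Figure D3:**
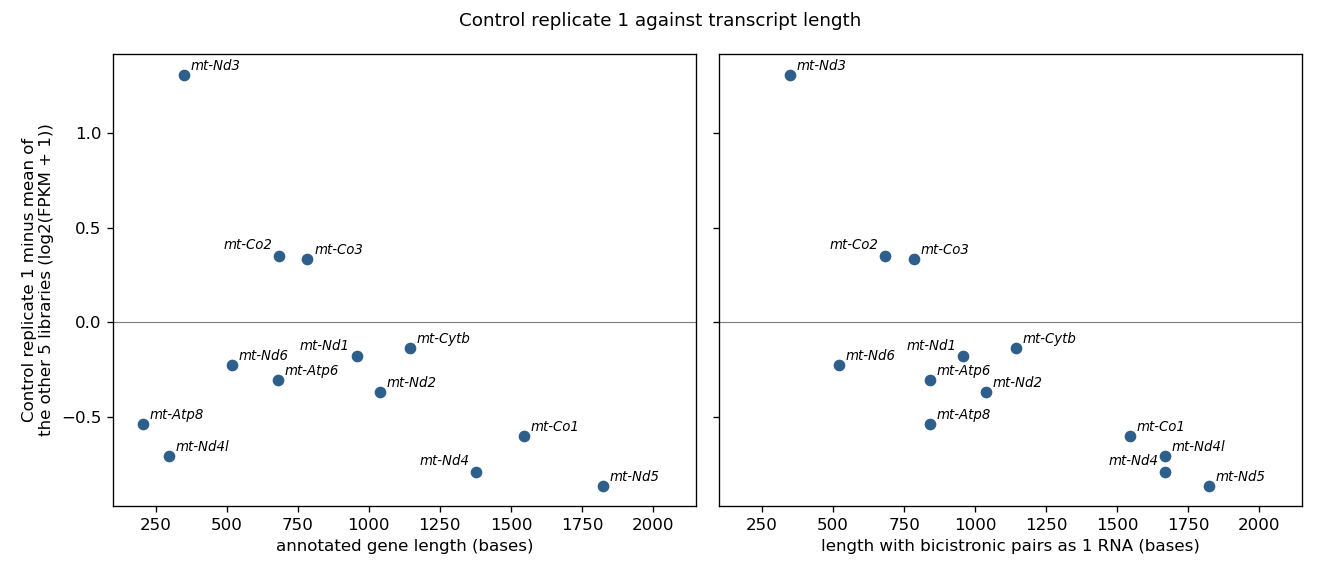
Deviation of control replicate 1 from the mean of the other 5 libraries (y axis, log2(FPKM + 1)) for the 13 mitochondrially encoded transcripts, against annotated gene length (left) and against length with mt-Atp8/mt-Atp6 and mt-Nd4l/mt-Nd4 each counted as 1 RNA (right, bases). Points are transcripts; mt-Atp8 and mt-Nd4l lie at the lower left in the first panel and beside their partners in the second.

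The non-coding RNAs of the same genome were also listed. mt-Rnr2, the large ribosomal RNA, measured 1416, 1522 and 1514 FPKM with DOPAC and 872, 1251 and 1202.5 FPKM in the controls, a log2 fold change of 0.44. mt-Rnr1, the small ribosomal RNA, measured 716.5, 636 and 579 FPKM with DOPAC and 712, 478 and 493 FPKM in the controls, a log2 fold change of 0.22. The groups separated for mt-Rnr2 and overlapped for mt-Rnr1, in which control replicate 1 was high. All 22 mitochondrial tRNAs were listed, of which 19 had positive log2 fold changes and 7 had groups that did not overlap, all higher with DOPAC (31.8%, beside 12.4% of all genes higher). The median log2 fold change of the 22 was 0.23, and 0.12 without control replicate 1. All 5 tRNA genes between mt-Nd2 and mt-Co1 (mt-Tw, mt-Ta, mt-Tn, mt-Tc and mt-Ty) were among those 7. They lie side by side at M:4950-5326, so fragments of one precursor can count for several of them. The 7 are therefore not separate observations. mt-Ta, mt-Tn, mt-Tc and mt-Ty lie on the minus strand, and the kits do not mark strand. mt-Ty, chosen because it had the smallest unadjusted limma p of the 22 (0.042, adjusted 0.801), measured 174.4, 169.7 and 175.4 FPKM with DOPAC and 109.9, 144.2 and 150.2 FPKM in the controls. Negative log2 fold changes belonged to mt-Tf (-0.059), mt-Ts1 (-0.084) and mt-Td (-0.15). Genes this short hold few whole fragments, and unprocessed precursors contribute to them, so FPKM of tRNAs are uncertain.

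Of 7 nuclear members grouped here under transcription, 3 (42.9%) had every DOPAC library above every control, beside 12.4% of all genes. The grouping is broad and takes in Tfb1m, an RNA methyltransferase. Over the 27 nuclear-encoded members the share was 18.5%. Tefm, the elongation factor, measured 6.90, 7.18 and 7.08 FPKM with DOPAC and 4.75, 5.68 and 6.19 FPKM in the controls. DOPAC exceeded Control by 0.31 on the log2 scale (95% interval -0.014 to 0.63), or by 0.22 (0.042 to 0.39) without control replicate 1. Tfb2m, which melts the promoter for the polymerase, measured 14.99, 13.2 and 13.7 FPKM with DOPAC and 8.79, 12.1 and 13.1 FPKM in the controls. Tfam, which packages mitochondrial DNA and recruits the polymerase, measured 17.9, 18.5 and 18.9 FPKM with DOPAC and 13.2, 17.5 and 17.5 FPKM in the controls. For Tfb2m and Tfam the DOPAC and control libraries lay close except for control replicate 1, and the log2 fold changes were 0.29 and 0.20, or 0.14 and 0.070 without it. Polrmt, the polymerase gene, measured 6.56, 7.14 and 8.18 FPKM with DOPAC and 6.41, 11.1 and 9.90 FPKM in the controls. Its groups overlapped only through control replicate 1, and the log2 fold change was -0.27 (95% interval -0.77 to 0.24). Without that library it was -0.48 (-0.74 to -0.22; limma adjusted p = 0.295), with the smallest unadjusted p of all 40 members. The ratio of Tefm to Polrmt FPKM was 1.05, 1.01 and 0.866 with DOPAC and 0.741, 0.510 and 0.625 in the controls, and these groups did not overlap with control replicate 1 included; the pair was chosen after its values were seen.

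The other members of this group had overlapping groups. Tfb1m, a methyltransferase for the small ribosomal RNA, had a log2 fold change of 0.23, with DOPAC replicates at 4.36, 3.85 and 3.14 FPKM and controls at 3.04, 2.84 and 3.30 FPKM. The termination factor relatives Mterf3 and Mterf4 had 0.0845 and -0.027, and the sign of each turned without control replicate 1 (-0.076 and 0.012). Exons of Mterf4 share 35.2% of their bases with Sned1 on the opposite strand, so its reads are uncertain.

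Promoters of Tefm, Tfb2m, Gabpa, Tfam and Polrmt are shown: of the nuclear members with groups that did not overlap and of Tfam, Polrmt, Polg and Lrpprc, they had the smallest p-values among those with a window to show. RefSeq windows of 300 bases around the start (GRCm38.p6) were found for 24 of the 27 nuclear members. The letters CCGGAAG, the core of sites bound by ETS factors such as GABPA, stood on one strand or the other in 12 of the 24 (50.0%), beside 9.12% of 27025 promoters of the same length. Those 27025 were not limited to the genes tested here, whereas all members were tested genes, so the sets compared are unlike. TGCGCA, from the palindromic site of NRF1, stood in 2 (8.33%, beside 8.06% of all), the full NRF1 palindrome in 0 of 24 (beside 0.977%), and the E-box CACGTG in 1 (4.17%, beside 7.24%). The palindrome and TGCGCA can overlap each other. The members with CCGGAAG were Fastkd5, Gabpa, Mterf4, Polg, Polg2, Polrmt, Slirp, Ssbp1, Tbrg4, Tefm, Tfam and Trmt10c, among which log2 fold changes of both signs occurred. A match describes letters only. CCGGAAG and TGCGCA are in capitals below, on either strand, in windows at chr11:80142104-80142403 minus, chr1:179546227-179546526 minus, chr16:84834874-84835173 plus, chr10:71237995-71238294 minus and chr10:79746532-79746831 minus.
Tefm: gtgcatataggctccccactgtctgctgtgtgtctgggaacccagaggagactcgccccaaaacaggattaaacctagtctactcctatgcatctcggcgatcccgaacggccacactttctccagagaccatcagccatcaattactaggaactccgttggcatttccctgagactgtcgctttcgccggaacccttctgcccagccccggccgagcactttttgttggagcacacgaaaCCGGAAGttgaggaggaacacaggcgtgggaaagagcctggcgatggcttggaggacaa
Tfb2m: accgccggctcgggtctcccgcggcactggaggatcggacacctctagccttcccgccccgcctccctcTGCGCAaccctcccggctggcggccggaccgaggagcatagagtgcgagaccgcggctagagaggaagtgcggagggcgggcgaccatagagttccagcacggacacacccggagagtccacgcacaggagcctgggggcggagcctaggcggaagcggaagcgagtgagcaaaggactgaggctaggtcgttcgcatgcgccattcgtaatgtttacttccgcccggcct
Gabpa: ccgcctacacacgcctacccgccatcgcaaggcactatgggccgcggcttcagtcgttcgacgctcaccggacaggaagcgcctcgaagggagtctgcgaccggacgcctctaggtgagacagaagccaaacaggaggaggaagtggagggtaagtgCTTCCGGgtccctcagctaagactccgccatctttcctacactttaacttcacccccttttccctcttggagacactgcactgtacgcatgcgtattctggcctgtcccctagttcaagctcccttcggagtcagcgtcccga
Tfam: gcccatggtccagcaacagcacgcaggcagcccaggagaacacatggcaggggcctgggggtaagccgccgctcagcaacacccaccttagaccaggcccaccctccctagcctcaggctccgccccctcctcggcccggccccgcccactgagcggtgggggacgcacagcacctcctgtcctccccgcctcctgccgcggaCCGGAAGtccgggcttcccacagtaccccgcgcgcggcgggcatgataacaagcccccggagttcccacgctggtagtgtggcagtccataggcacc
Polrmt: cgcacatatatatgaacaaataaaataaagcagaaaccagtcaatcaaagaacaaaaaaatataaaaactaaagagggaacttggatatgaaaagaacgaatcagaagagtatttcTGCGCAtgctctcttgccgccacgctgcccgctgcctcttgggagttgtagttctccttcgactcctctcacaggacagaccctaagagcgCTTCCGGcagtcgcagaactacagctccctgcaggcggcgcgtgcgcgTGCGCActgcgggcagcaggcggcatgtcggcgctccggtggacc

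The groups overlapped in all 4 replication genes. Polg, the catalytic subunit of the mitochondrial DNA polymerase, measured 6.27, 6.87 and 6.51 FPKM with DOPAC and 4.67, 8.38 and 7.96 FPKM in the controls. Control replicate 1 was the lowest library and the other controls the highest, so that the log2 fold change was -0.050 (95% interval -0.56 to 0.46) with all libraries and -0.28 (-0.46 to -0.10; limma adjusted p = 0.295) without it. Twnk, the replicative helicase, had 0.17, Ssbp1, the single-strand binding protein, 0.076 and Polg2, the accessory subunit of the polymerase, 0.052. The lowest of these 4 genes was Polg2, at 1.14 to 1.74 FPKM over the 6 libraries. Exons of Polg share 8.57% of their bases with Fanci, and those of Twnk 12.6% with Mrpl43.

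RNA stability factors were led in level by Tbrg4 (also called FASTKD4), which stabilises several mitochondrial mRNAs. Lrpprc, the main partner of mitochondrial mRNAs, measured 22.4, 24.2 and 26.1 FPKM with DOPAC and 12.5, 24.4 and 24.1 FPKM in the controls. Slirp, its binding partner, measured 1.70, 1.07 and 1.60 FPKM with DOPAC and 9.54, 1.26 and 1.17 FPKM in the controls. Control replicate 1 was thus the lowest library for Lrpprc and the highest for Slirp, and the ratio of Slirp to Lrpprc FPKM was 0.760 in it, against 0.0444 to 0.0759 in the other 5. Without control replicate 1 the log2 fold changes were -0.0055 for Lrpprc and 0.14 for Slirp, against 0.29 and -0.61 with all 6 libraries. Exons of Slirp share 93.9% of their bases with Snw1 on the opposite strand, and its values are uncertain. Mtpap, the mitochondrial poly(A) polymerase, measured 12.6, 12.4 and 12.98 FPKM with DOPAC and 7.89, 11.7 and 12.3 FPKM in the controls. Its groups did not overlap, though control replicate 3 lay just under DOPAC replicate 2, and its log2 fold change of 0.25 (95% interval -0.18 to 0.68) was 0.071 without control replicate 1. Exons of Mtpap share 18.5% of their bases with Gm26865 on the opposite strand.

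Pnpt1, the polynucleotide phosphorylase of mitochondria, had a log2 fold change of 0.32 and Supv3l1, the helicase that works with it in RNA decay, 0.032, and the groups of both overlapped. The FASTK family members Fastkd5, Fastkd1 and Fastkd2, which act on the processing and stability of mitochondrial RNA, had 0.22, 0.16 and 0.11, and 0.0089, -0.065 and -0.048 without control replicate 1. Exons of Fastkd5 share 65.2% of their bases with Ubox5 on the same strand. Tbrg4 measured 40.7, 44.5 and 46.8 FPKM with DOPAC and 39.3, 51.1 and 53.2 FPKM in the controls. Its log2 fold change was -0.11, and -0.24 (95% interval -0.44 to -0.0435) without control replicate 1. Control replicate 1 was the lowest of the 6 libraries for 8 of these 9 genes (88.9%, beside 58.6% of all genes).

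tRNA excision rests on the 3' nuclease ELAC2 and on RNase P, of which TRMT10C and HSD17B10 are subunits. Elac2 had a log2 fold change of -0.11 and -0.22 (95% interval -0.41 to -0.032) without control replicate 1. Trmt10c had 0.22 and 0.079, and Hsd17b10 -0.16 and -0.0014, in the same order. The groups of all 3 overlapped with 6 libraries. Control replicate 1 was the lowest library for Elac2 and Trmt10c and the highest for Hsd17b10, at 33.7 FPKM against 22.9 to 26.0 FPKM elsewhere.

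Gabpa, the DNA-binding subunit of nuclear respiratory factor 2, had the largest positive log2 fold change of the nuclear members, and the other 3 regulators had negative ones. Gabpa measured 25.3, 24.6 and 24.8 FPKM with DOPAC and 11.9, 23.8 and 22.4 FPKM in the controls. The groups did not overlap, but controls 2 and 3 lay just under the DOPAC libraries, and the log2 fold change of 0.41 (95% interval -0.21 to 1.02) was 0.10 without control replicate 1. Exons of Gabpa share 6.98% of their bases with Atp5j. Nrf1, the other nuclear respiratory factor, had -0.039 and, without control replicate 1, -0.13. Pprc1, a coactivator related to PGC-1 alpha, measured 22.1, 27.1 and 27.7 FPKM with DOPAC and 17.04, 33.0 and 32.1 FPKM in the controls. Ppargc1b, another coactivator of that family, measured 1.15, 2.11 and 1.69 FPKM with DOPAC and 1.25, 2.93 and 2.48 FPKM in the controls. Control replicate 1 lay below the DOPAC libraries for Pprc1 and among them for Ppargc1b, and the other 2 controls lay above them in both genes. Their log2 fold changes were -0.042 and -0.26 with 6 libraries and -0.34 (95% interval -0.61 to -0.072) and -0.50 (-0.92 to -0.078) without control replicate 1.

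**Figure D4:**
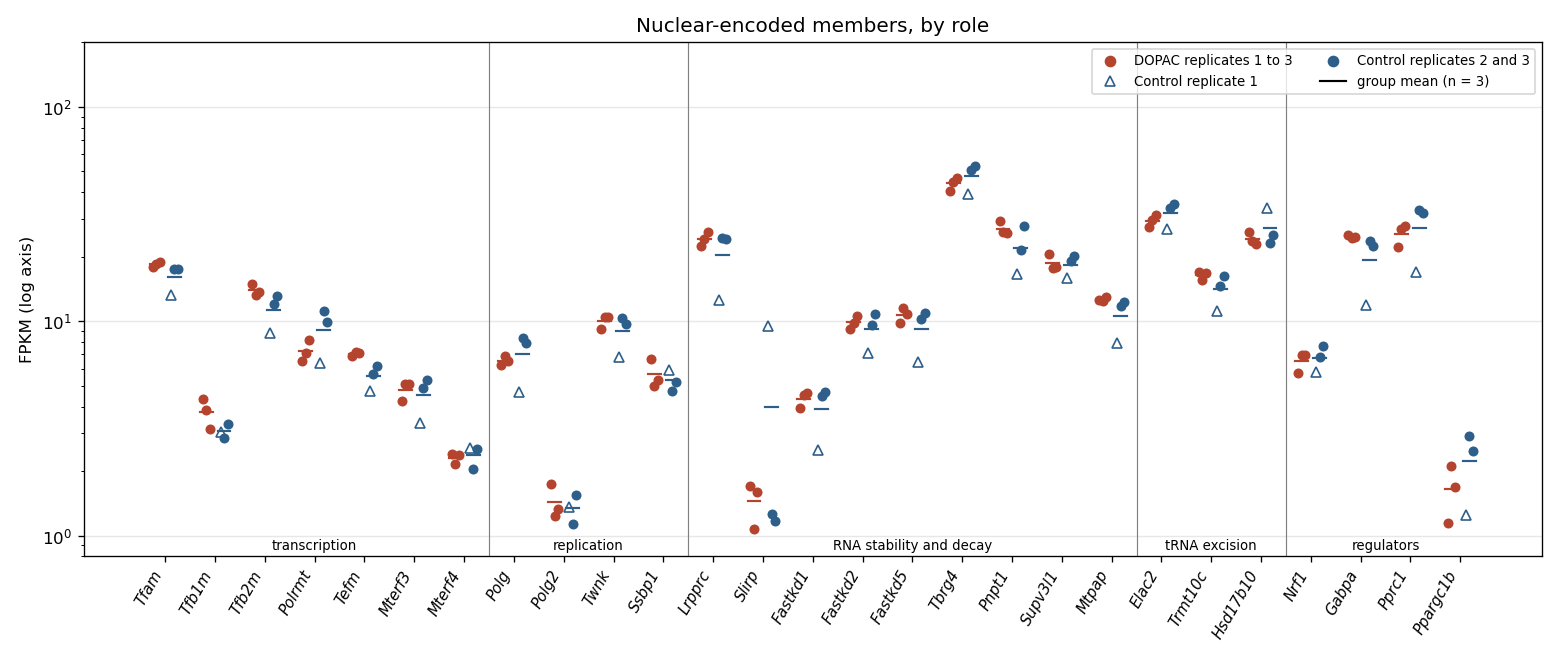
FPKM (log axis) of the 27 nuclear-encoded members grouped by role, with DOPAC points left of Control points. Points are libraries, the open triangle is control replicate 1 and lines are group means of 3; the triangle is the lowest of the 6 libraries in 19 genes and the highest in 3, farthest above for Slirp.

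More members had a small p without control replicate 1. At an unadjusted p under 0.05 there were then 4 members with higher values (mt-Atp8, mt-Atp6, mt-Co3 and Tefm; beside 5.57% of all genes) and 6 with lower values (Polrmt, Polg, Tbrg4, Elac2, Pprc1 and Ppargc1b; beside 8.89%). None passed the adjusted threshold (lowest limma adjusted p 0.295), which 2 of 10887 genes (0.0184%) did. All 6 with lower values were nuclear-encoded, and 3 of the 4 with higher values were mitochondrially encoded. The groups did not overlap in 21 members, beside 36.8% of all genes: in 15 with higher values, beside 15.3% of all genes, and in 6 with lower values, beside 21.5%. This comparison has 2 controls, and each of the other 5 libraries left out in turn gave at most 2 members at that p.

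**Figure D5:**
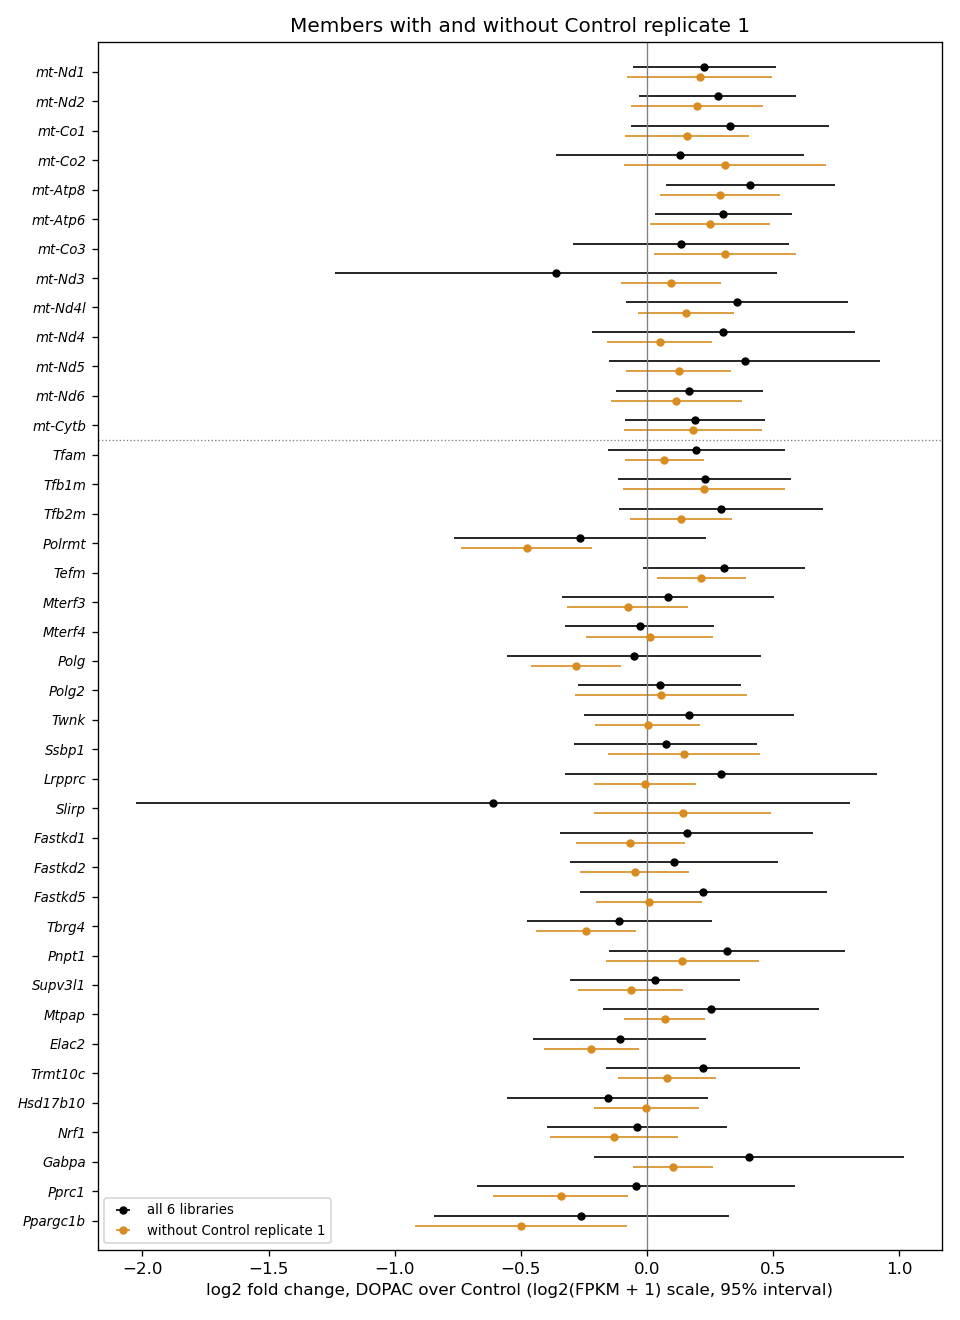
Log2 fold change of DOPAC over Control (x axis, log2(FPKM + 1) scale) for the 40 members, with all 6 libraries (black) and without control replicate 1 (orange). Points are estimates and bars are 95% intervals of the limma model; the 13 mitochondrially encoded transcripts are above the dotted line, and all 13 orange points there are positive, while those of Polrmt, Polg, Tbrg4, Elac2, Pprc1 and Ppargc1b have intervals below 0.

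Genes around this machinery were listed in 4 further groups, none of which held a gene past the threshold. Their counts stand beside 62.1% of all genes with a positive log2 fold change and a median of 0.066 over all genes (47.3% and -0.011 without control replicate 1). For mitochondrial RNA processing and modification, 22 of 29 genes (75.9%) had positive log2 fold changes, with a median of 0.15 (0.037 without control replicate 1). The smallest p-values belonged to Lactb2 (0.25) and Trmt5 (0.33) on the positive side and to Rexo2 (-0.26) and Pus1 (-0.15) on the negative side, the values being log2 fold changes. Of these, Lactb2, a mitochondrial endoribonuclease, had groups that did not overlap, with DOPAC higher, and so did Pus1, a pseudouridine synthase, with DOPAC lower. Without control replicate 1 the log2 fold changes of Lactb2, Trmt5, Rexo2 and Pus1 were 0.15, 0.16, -0.12 and -0.085. Mitochondrial DNA maintenance and nucleotide supply had 10 of 17 positive (58.8%) and a median of 0.089 (-0.060 without control replicate 1). Lonp1, a protease that also degrades TFAM, measured 54.3, 47.7 and 49.4 FPKM with DOPAC and 27.8, 45.7 and 38.3 FPKM in the controls, which did not overlap; its log2 fold change was 0.45, or 0.26 without control replicate 1. Slc25a36 had 0.47 and its fellow pyrimidine nucleotide carrier Slc25a33 -0.20, with groups that did not overlap in either gene. Without control replicate 1 these log2 fold changes were 0.17 and -0.19. Rnaseh1 had -0.15.

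For translation and termination factors of mitochondria, 12 of 17 genes were positive (70.6%) and the median was 0.077 (0.033 without control replicate 1). Mterf2, a relative of the termination factor, had 0.39 and Mterf1b 0.24, or 0.23 and 0.22 without control replicate 1. Tsfm, an elongation factor of mitochondrial translation, measured 7.69, 9.05 and 8.56 FPKM with DOPAC and 10.6, 10.5 and 9.91 FPKM in the controls. The DOPAC libraries lay below all controls, control replicate 1 was close to the other controls, and the log2 fold change was -0.27, or -0.25 without that library. Mrpl12, a ribosomal protein that also binds the polymerase, had -0.37 and -0.0435 in the same order, with control replicate 1 at 111 FPKM against 51.0 to 61.9 FPKM in the other 5. Upstream regulators and cofactors, of which 9 of 10 were analysed, had 5 positive (55.6%) and a median of 0.0008 (-0.13 without control replicate 1). Gabpb2 and Creb1 had 0.37 and 0.28, and Max and Esrra -0.14 and -0.095. Of the 4, only Max had groups that did not overlap. Without control replicate 1, Gabpb2 and Creb1 had 0.0002 and -0.043, and Max and Esrra -0.13 and -0.089.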

How the data were processed

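RNA-seq libraries were made from 6 samples, per the labels' protocols from TRIzol RNA (SMART-Seq HT cDNA, Nextera XT indexing); these kits keep no strand information. Per the submitters' processing notes, cutadapt 1.9, HISAT2 2.2.1 and mm10 were used; for the expression estimator and annotation: not given in the sources used here. The authors deposited FPKM for 11175 genes, in which whole-read steps could not be found among low values. The authors' deposited log2 fold change matched that of mean log2(FPKM + 1) to 1e-06 for each of 11175 genes, and the authors' p-values, per the file headers, were not used further. Library names gave the group and replicate number, and the title of DOPAC replicate 1 has a variant spelling.

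From FPKM, log2(FPKM + 1) was taken, which understates fold changes of genes with low values, and genes with a mean of at least 1 FPKM were fitted with limma 3.58.1 (R 4.3.3, mean-variance trend), DOPAC against Control, without a block. P-values were two-sided and adjusted over all 10887 genes at 0.05; intervals are 95% intervals. Sums, shares and ratios carry no test. Member and pathway lists were chosen with earlier results of these data known. Named were all members, values per library for those encoded in mitochondria, those with groups that did not overlap or an unadjusted p under 0.05, and Tfam, Polrmt, Polg and Lrpprc; per further list, up to 2 genes of smallest p in each direction. Values per library of other genes (Slirp, Tbrg4, Tfb1m, Pprc1, Ppargc1b, Lonp1, Tsfm, mt-Ty) were added after they were seen. Positions and exons came from GENCODE M21 (GRCm38), which held 11067 of the genes.

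Libraries with the same number deviated together from their group means (r over genes 0.34, 0.16 and 0.28, each above 0.1). So did DOPAC replicate 3 with control replicate 2 (0.24) and DOPAC replicate 2 with control replicate 3 (0.19). The other pairs, each with a replicate 1, ran from -0.33 to -0.19. Deviations within a group cancel out, so these values are not independent and do not settle a pairing. The main fit took no pairing, and the replicate numbers served as a block in an alternative. No label ties them to an animal or date. Alternatives were a pseudocount of 0.1, a 5 FPKM minimum, no minimum, quantile normalization, scaling to equal sums of nuclear genes, removal of the length trend, the replicate block and leaving out each library. Plots used matplotlib 3.10.9 (Python 3.11.15).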

Additional observations from a re-analysis of the deposited data

How the results depend on the processing

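No member passed the adjusted threshold under any alternative (lowest limma adjusted p 0.295), and 26 of the 40 kept the sign of their log2 fold change under all alternatives run. The count of all genes past the threshold was 0, also with the replicate block, and 0 to 2 when 1 library was left out (2 without control replicate 1). Members with an unadjusted p under 0.05 and higher values numbered 2 (mt-Atp8 and mt-Atp6), against 1 with quantile normalization (Tefm), 1 with the replicate block (mt-Atp8) and 0 to 4 with 1 library left out (0 without DOPAC replicate 1 and without DOPAC replicate 2, 1 without DOPAC replicate 3); there were also 2 with the length trend removed, but these were mt-Co2 and mt-Co3; those with lower values numbered 0, against 2 with the length trend removed (Polg and Polrmt) and 0 to 6 with 1 library left out. The median log2 fold change of the 13 mitochondrially encoded transcripts was 0.281, against 0.403 after removal of the length trend and 0.131 after quantile normalization (the cause was not tested), and 0.182 to 0.325 with 1 library left out. That of the nuclear-encoded members was 0.085, 0.032 after quantile normalization, -0.008 after removal of the length trend, and 0.003 to 0.191 with 1 library left out. The difference in the share of the 13 was 1.88 percentage points, 1.17 after quantile normalization, when the groups overlapped, 2.62 after removal of the length trend, and 1.09 to 2.40 with 1 library left out. The replicate block changed no other call. Signs turned for 14 members, 2 of them mitochondrially encoded. With quantile normalization mt-Co2 had -0.003 and Supv3l1 -0.006. With the length trend removed Polg2 had -0.028, Ssbp1 -0.074, Mterf3 -0.010 and Fastkd2 -0.008. With 1 library left out the values of those whose sign turned ranged as follows: mt-Co2 -0.011 to 0.312, mt-Nd3 -0.629 to 0.098, Polg -0.281 to 0.082, Polg2 -0.035 to 0.112, Ssbp1 -0.029 to 0.149, Mterf3 -0.076 to 0.191, Mterf4 -0.099 to 0.012, Lrpprc -0.006 to 0.449, Slirp -0.998 to 0.142, Fastkd1 -0.065 to 0.284, Fastkd2 -0.048 to 0.226, Supv3l1 -0.064 to 0.096, Nrf1 -0.130 to 0.044 and Pprc1 -0.340 to 0.116. The filter of 5 FPKM left 33 members and gave no value for the other 7.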
